A study of Mus musculus with 4 samples.

Results

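The contacts described here join sites on mouse chromosome 15 that lie 1 Mb or more apart, inside the captured region chr15:10278401-13196800 (mm9), a window of 2918.4 kb. They were chosen by distance alone. Every pair of 6.4 kb bins of that region whose starts were 1000000 bases or more apart was taken, which gave 44850 of its 104196 bin pairs (43.0%), the nearest of them 1004.8 kb apart. Single bin pairs at these distances held few reads, and they were therefore summed in blocks of 20 by 20 bins, so that each block gave the contact between a pair of intervals of 128.0 kb. The region was covered by 23 such intervals, numbered from its upstream end, of which the last was shorter (16 bins). Blocks with at least 200 usable bin pairs numbered 119 and held 44280 of the bin pairs; 299 fell on a bin without signal and 271 in smaller blocks, which are not described singly.

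The maps came from 4 tiled Capture-C libraries, 1 per group, all made from mESCs, the mouse embryonic stem cells of the E14 background. In this assay crosslinked chromatin is cut, religated and enriched for chosen regions with tiled oligonucleotides, so that reads joining a pair of sites count how often those sites were ligated. All lines were clones in which Rad21, the gene of a cohesin subunit, carried a HaloTag-FKBP tag at its own locus, in which CTCF sites inside the domain around the arrays had been deleted beforehand, and in which TetO and LacO operator arrays sat on 1 allele and were bound by TetR-tdTomato and LacI-eGFP. Line 1B1 had 3xCTCF cassettes beside the arrays in convergent orientation and no resistance promoters, line 1A2 was derived from 1B1 by removing the cassettes, and line 1F4 lacked the cassettes but kept the promoters of the resistance genes. The fourth library, 1B1 with cohesin degraded, came from 1B1 cells given 500 nM dTAG-13 for 2 h, which sends tagged RAD21 to degradation. Because a clone, a culture and a library coincide in each group, a difference between groups cannot be told apart from a difference between cultures or preparations, and no test across replicates was possible.

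Chromosomes fold at several scales. Cohesin is thought to extrude loops that are halted at sites bound by CTCF, which gathers neighbouring sequence into topologically associating domains (TADs), while active and inactive stretches also tend to meet their own kind over larger distances in what are called A and B compartments. Contacts that span several TADs report mainly on how domains meet one another.

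The region held the starts of 22 protein-coding genes in 14 of its 23 intervals, and 9 intervals held none. From the upstream end came Agxt2 and Dnajc21 (interval 1), Brix1, Rad1 and Ttc23l (2), Rai14 (3), an interval with no gene (4), C1qtnf3 and Amacr (5), and Slc45a2, Rxfp3 and Adamts12 (6). The body of Adamts12, which encodes a secreted metalloprotease, took up interval 7 and most of interval 8, and Tars, a tRNA synthetase gene, started in interval 9. Interval 10 held the LacO site and interval 11 the TetO site, neither with a gene, and interval 12 lay over the 3' end of Npr3, the receptor that clears natriuretic peptides. Downstream followed Npr3 and Sub1 (13), Zfr (14), Mtmr12 (15), Golph3 (16), the body of Pdzd2 (17), Gm2606 (18), Pdzd2 (19), 6030458C11Rik and Drosha (20), the end of Drosha with the end of Cdh6 (21), the body of Cdh6 (22) and the Cdh6 start (23).

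The integration sites are shown first because the lines differ there. Each is the guide match in mm9, printed 5' to 3' with the adjoining PAM in capitals, and the coordinates cover the guide match without the PAM; neither site overlapped a gene.
LacO guide site (chr15:11496892-11496911, plus strand): atgagatgctcggcttccatAGG
TetO guide site (chr15:11647356-11647375, plus strand): aaatccttgtcctggagtaaTGG

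Promoters are shown for genes of the intervals whose far contacts stood out below. Each runs from 250 bases before to 50 bases after the annotated start, taken from the mm9 sequence at GENCODE coordinates, with every CG dinucleotide (letters CG, the same on both strands) in capitals. Zfr, an RNA-binding zinc finger gene, and Drosha, the nuclease that starts microRNA maturation, have 30 and 37 CG; of 32851 mouse promoters of this length in the RefSeq table (assembly GRCm38.p6), 11.7% and 5.6% hold as many. Adamts12 has 7 and Cdh6, a cell adhesion gene of the cadherin family, has 8, numbers reached by 52.1% and 48.6% of the table. Sub1, although on the list of broadly expressed genes used below, has 4 at its annotated start, a number reached by 68.6%.
Zfr promoter (chr15:12047336-12047635, plus strand, 30 CG): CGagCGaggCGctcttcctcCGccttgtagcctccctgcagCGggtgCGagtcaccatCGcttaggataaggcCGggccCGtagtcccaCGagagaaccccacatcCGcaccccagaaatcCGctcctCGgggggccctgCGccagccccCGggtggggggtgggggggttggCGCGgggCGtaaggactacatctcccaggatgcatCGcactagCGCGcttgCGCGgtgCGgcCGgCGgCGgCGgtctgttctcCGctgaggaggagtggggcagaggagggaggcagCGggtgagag
Sub1 promoter (chr15:11926689-11926988, minus strand, 4 CG): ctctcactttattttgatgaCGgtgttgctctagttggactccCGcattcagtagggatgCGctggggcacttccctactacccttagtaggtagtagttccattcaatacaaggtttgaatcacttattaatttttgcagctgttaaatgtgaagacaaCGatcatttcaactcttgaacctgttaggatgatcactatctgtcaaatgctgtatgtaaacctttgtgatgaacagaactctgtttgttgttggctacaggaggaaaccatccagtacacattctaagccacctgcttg
Drosha promoter (chr15:12754320-12754619, plus strand, 37 CG): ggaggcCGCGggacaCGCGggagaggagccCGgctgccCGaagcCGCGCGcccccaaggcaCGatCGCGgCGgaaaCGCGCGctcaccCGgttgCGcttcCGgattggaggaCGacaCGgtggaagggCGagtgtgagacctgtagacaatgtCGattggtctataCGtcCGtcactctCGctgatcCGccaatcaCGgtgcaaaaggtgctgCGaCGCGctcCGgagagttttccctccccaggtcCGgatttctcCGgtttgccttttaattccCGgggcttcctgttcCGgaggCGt
Adamts12 promoter (chr15:10994295-10994594, plus strand, 7 CG): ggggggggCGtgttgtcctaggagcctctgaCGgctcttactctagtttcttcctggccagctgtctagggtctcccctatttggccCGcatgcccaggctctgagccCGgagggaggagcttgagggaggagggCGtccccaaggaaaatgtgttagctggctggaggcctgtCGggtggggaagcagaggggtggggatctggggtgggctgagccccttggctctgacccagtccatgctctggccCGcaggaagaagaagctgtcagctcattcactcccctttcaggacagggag
Cdh6 promoter (chr15:13103345-13103644, minus strand, 8 CG): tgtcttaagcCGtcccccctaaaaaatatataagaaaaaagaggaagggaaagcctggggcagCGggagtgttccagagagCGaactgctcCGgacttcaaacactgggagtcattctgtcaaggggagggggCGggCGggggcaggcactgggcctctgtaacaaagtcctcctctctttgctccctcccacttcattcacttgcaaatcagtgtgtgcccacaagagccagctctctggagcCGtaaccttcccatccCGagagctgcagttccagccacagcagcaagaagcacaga

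The consensus core of the CTCF motif was searched by name on both strands of the mm9 region. It matched at 10 places, in 8 of 23 intervals, and 5.95% of all 454 windows of 3 adjacent bins held a match. All 10 matches are printed with 9 bases on either side and the core in capitals, read along the strand given. From the nearest domain boundary, the matches lay 2.4 kb and 2.9 kb away in interval 9, 2.6 kb in interval 18 and 13.1 kb in interval 16, and 26.5 kb or more in the others. A match is not evidence of binding, and the cell lines differ from mm9 where CTCF sites were deleted.
Interval 1 (chr15:10319166-10319195, minus strand): tcagacacaCCAGCAGAGGGCatcagatct
Interval 5 (chr15:10802305-10802334, minus strand): cagtctacaCCACTAGGTGGCgatgtagaa
Interval 9 (chr15:11336786-11336815, minus strand): tacatttcaCCAGCAGAGGGCgtcacttga
Interval 9 (chr15:11337300-11337329, minus strand): gacatgtaaCCACTAGGTGGCgaccgtctt
Interval 14 (chr15:11968189-11968218, plus strand): ggggcggagCCAGCAGGGGGCggagccagc
Interval 15 (chr15:12178197-12178226, minus strand): catgaagaaCCACTAGGGGGCgtggccaaa
Interval 15 (chr15:12197961-12197990, minus strand): agcaggctgCCACCAGGGGGCacagcacac
Interval 16 (chr15:12301063-12301092, plus strand): agcttttcaCCAGCAGGTGGCaccgcttgc
Interval 18 (chr15:12508171-12508200, plus strand): cctcagaggCCAGTAGAGGGCgctggatcc
Interval 20 (chr15:12793540-12793569, plus strand): aatttcttcCCAGTAGATGGCattgtaagg

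The share of reads that joined sites 1 Mb or more apart was slightly higher after cohesin degradation than in 1B1. In the chromosome 15 region such pairs took 42286 of 1225535 recovered reads in 1A2 (3.45%, Wilson 95% interval 3.42 to 3.48), 47464 of 1558596 in 1F4 (3.05%, 3.02 to 3.07), 49110 of 1222239 in 1B1 (4.02%, 3.98 to 4.05) and 56441 of 1375312 in 1B1 after degradation (4.10%, 4.07 to 4.14). The treated library was thus 0.03 above 1B1 on the log2 scale, whereas 1A2 and 1F4 were 0.22 and 0.40 below it (log2 ratios to 1B1 of -0.22 and -0.40), so that the untreated lines differed among themselves by more than 1B1 changed. On chromosome 1 and chromosome X, captured in the same libraries, the treated library was below 1B1, with log2 ratios of -0.15 and -0.33. The Wilson intervals of 1B1 and the treated library did not overlap, but they cover counting error only.

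Within the far pairs, the treated library had less contact than 1B1 at the shorter distances and more at the longer ones. Between 1000 and 1250 kb the mean balanced signal per bin pair was 6.49 in 1A2, 5.79 in 1F4 and 7.40 in 1B1, and 6.18 after degradation, a ratio of treated to 1B1 of 0.835 ± 0.012 (counting error), with the treated value inside the range of the untreated lines. Between 2000 and 2250 kb it was 3.34, 3.03, 3.93 and 5.41, and the ratio was 1.38 ± 0.035. In between the ratio climbed from 0.965 ± 0.015 (1250 to 1500 kb) to 1.06 ± 0.019 (1500 to 1750 kb) and 1.29 ± 0.028 (1750 to 2000 kb), and from 2500 to 2750 kb it was 1.51 ± 0.080.

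Contact therefore decayed less steeply in the treated library. The signal at 1000 to 1250 kb was 1.94, 1.91 and 1.88 times that at 2000 to 2250 kb in 1A2, 1F4 and 1B1, and 1.14 times after degradation. From 1500 kb on, the treated value lay above all 3 untreated libraries, by more than the counting errors. Just below 1 Mb the treated library was lower, with a ratio of treated to 1B1 of 0.686 ± 0.0044 between 500 and 1000 kb. The ratio also grew with distance on chromosome 1, from 0.771 ± 0.0083 at 1000 to 1250 kb to 1.31 ± 0.032 at 2500 to 2750 kb, where it passed 1 by more than its error only beyond 2250 kb.

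**Figure D1:**
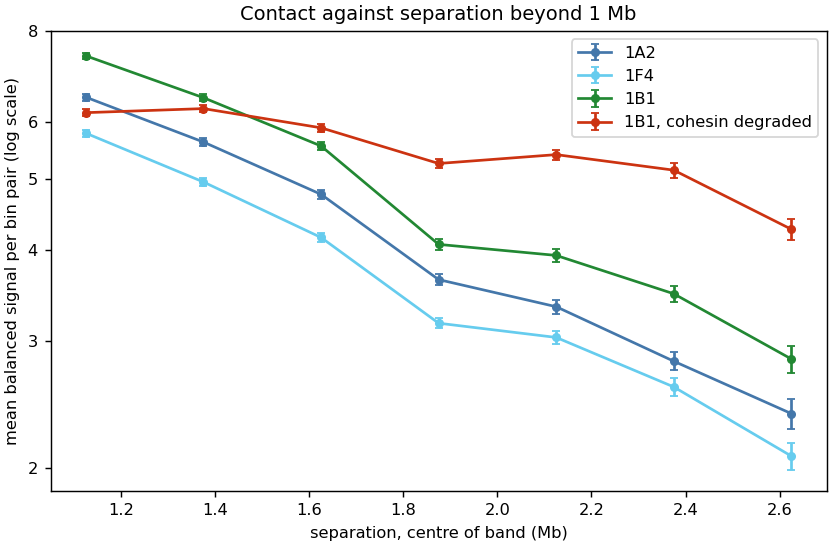
Mean balanced signal per bin pair (log axis) against separation in bands of equal width (Mb), for the 4 libraries, with counting errors as bars. The untreated lines fall together by about the same factor, while the library with cohesin degraded stays between 4.27 and 6.26 and passes 1B1 from the band of 1500 to 1750 kb on.

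To ask which intervals met apart from distance, each block was expressed as observed/expected, the sum of its balanced values divided by the sum of the library's mean values at the same separations. A value of 1 is average contact for that distance. Since the expected value is the mean over the region, a block that is high at a separation lowers the others at that separation, most of all beyond 2 Mb where few blocks remain (28 of 119); blocks are named only up to 2 Mb (91 blocks). Reads per block had medians of 311 in 1A2, 356 in 1F4 and 374 in 1B1, and 422 after degradation, the fewest being 82, and the median counting error of a block was 0.08 to 0.10 on the log2 scale.

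In untreated cells the far map had a clear pattern that was shared by the 3 lines. Intervals 1 to 3, around Brix1, Rad1 and Rai14, and interval 5, around C1qtnf3 and Amacr, met intervals 13 and 14, around Sub1 and Zfr, more than average for their distance. Interval 6, around Slc45a2, whose contact with interval 13 is under 1 Mb, did so with interval 14. Interval 4, which holds no gene, did so with both, at 1.54, 1.55 and 1.24 with interval 13 in 1A2, 1F4 and 1B1 and at 1.2 to 1.45 with interval 14. By contrast, the Adamts12 body (intervals 7 and 8) met the stretch from Golph3 to Drosha (intervals 16 to 20) less than average. Block values (log2) had a Pearson correlation of 0.958 to 0.976 between untreated libraries over 91 blocks, which share intervals and expected values, and of 0.845 to 0.873 between the treated library and each untreated one.

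**Figure D2:**
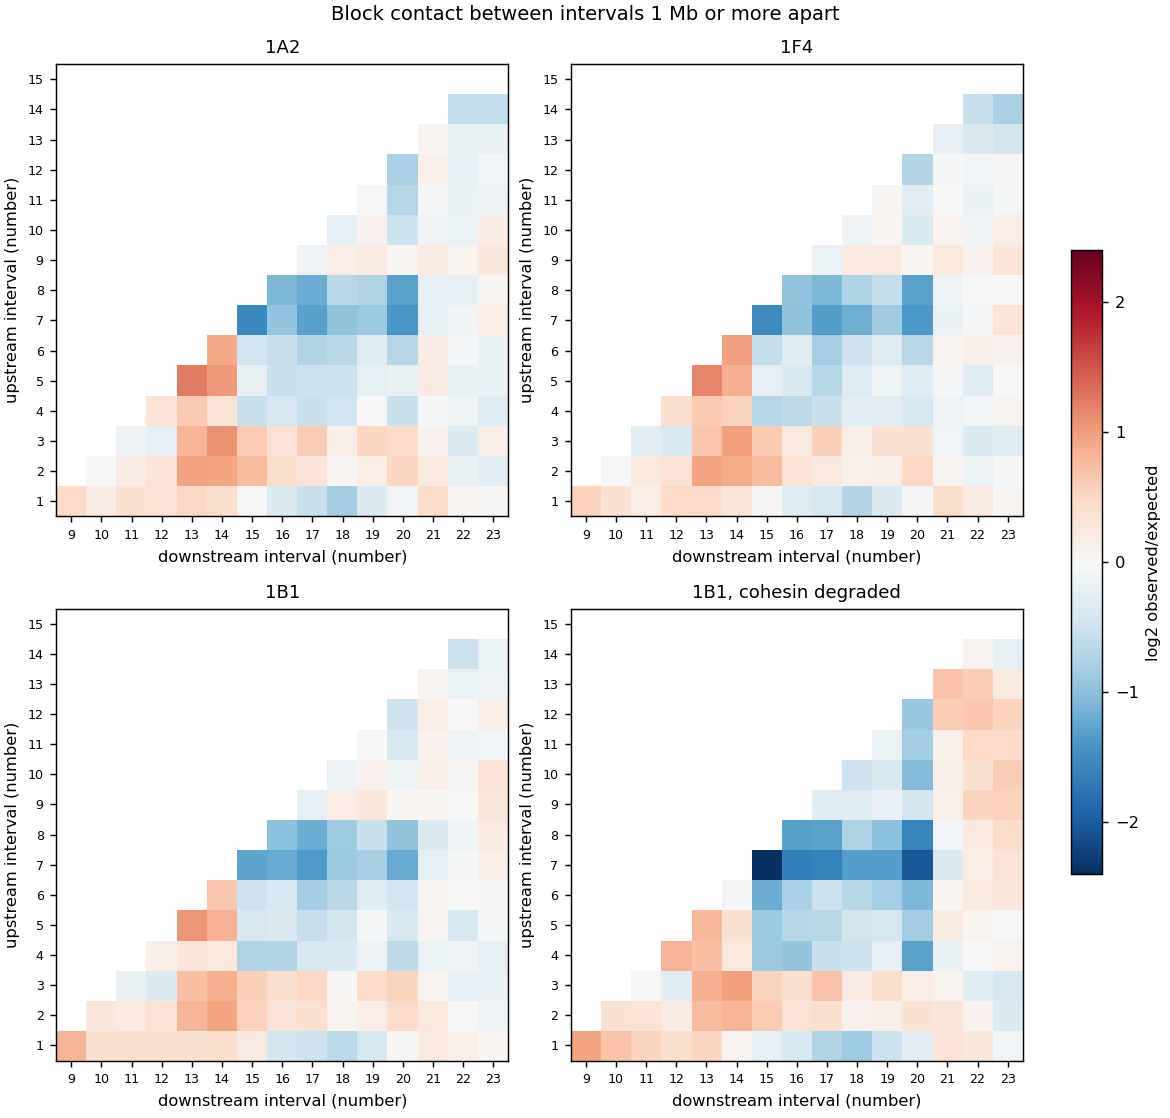
Log2 observed/expected of every block in the 4 libraries, by the numbers of its upstream and downstream interval; white cells are under 1 Mb or hold too few bin pairs. The high patch at intervals 13 and 14 and the low patch of intervals 7 and 8 with 16 to 20 recur in all 4 panels, and the lowest block of all, -2.39 after cohesin degradation, is interval 7 with 15.

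The highest block in the mean of the untreated lines joined interval 5 with interval 13. Interval 5 (chr15:10790401-10918400) holds the starts of C1qtnf3, a secreted C1q/TNF-related protein gene, and Amacr, an enzyme of branched-chain fatty acid breakdown, and interval 13 (chr15:11814401-11942400) holds those of Npr3 and Sub1, a transcriptional coactivator gene. Its observed/expected was 2.36 ± 0.108 in 1A2, 2.26 ± 0.0884 in 1F4 and 2.08 ± 0.102 in 1B1, and 1.74 ± 0.083 after degradation (counting errors). The treated value was below all untreated ones, 1.2-fold under 1B1. Within this block the strongest window of 3 by 3 bins with enough reads joined chr15:10841601-10860800 with chr15:11884801-11904000, which overlap no gene; it stood at 4.72 ± 0.594, 4.84 ± 0.563 and 4.58 ± 0.562 in 1A2, 1F4 and 1B1 and at 2.39 ± 0.454 with cohesin degraded, on 67, 78, 71 and 30 reads.

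The other 4 of the 5 highest blocks also ended in intervals 13 or 14. Interval 3 (the Rai14 start, an actin-associated protein gene) with interval 14 (Zfr) gave 2.11 ± 0.0864 in 1A2, 1.97 ± 0.0749 in 1F4 and 1.80 ± 0.0723 in 1B1, and 1.97 ± 0.074 after degradation, at a mean separation of 1408.0 kb. Interval 2, with the ribosome assembly gene Brix1 and the checkpoint gene Rad1, gave 1.93 ± 0.1, 1.85 ± 0.123, 1.92 ± 0.0871 and 1.75 ± 0.0795 with interval 14, and 1.94 ± 0.0898, 1.93 ± 0.0805, 1.76 ± 0.0693 and 1.69 ± 0.0692 with interval 13. In these 3 blocks the treated library differed from 1B1 by 0.13 or less on the log2 scale, with counting errors of 0.08 and 0.09.

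Interval 5 with interval 14 behaved otherwise, with 2.04 ± 0.110, 1.84 ± 0.0802 and 1.79 ± 0.0776 in 1A2, 1F4 and 1B1 against 1.29 ± 0.0901 after degradation. Thus the contacts of intervals 13 and 14 with interval 5 were lower in the treated library, and those with intervals 2 and 3 stayed near the 1B1 values. Those with interval 2 were nevertheless also below all untreated libraries, by less than those with interval 5. Interval 1, farther still, stood at 1.34 ± 0.0858, 1.24 ± 0.0741 and 1.34 ± 0.0926 with interval 14 in 1A2, 1F4 and 1B1 and at 1.05 ± 0.0766 after degradation, below all untreated values. With interval 13 it stood at 1.42 ± 0.0877, 1.37 ± 0.079, 1.29 ± 0.0769 and 1.44 ± 0.0843, slightly above all untreated values. The windows with the most contact in the blocks of interval 14 with intervals 2, 3 and 5 shared 1 side, chr15:11948801-11968000, which lies between Sub1 and Zfr and overlaps no gene. None of the 18 different window sides held a CTCF core match. Since only 5.95% of all windows of 3 bins held one, this does not set the sides apart from other windows. The match of interval 14 printed above begins just beyond the downstream edge of the shared side. Windows did not always move with their blocks. That of interval 6 with 14 stood at 3.73 ± 0.926, 3.79 ± 0.756, 2.27 ± 0.537 and 3.7 ± 1.07 in 1A2, 1F4, 1B1 and the treated library, although its block was lower than in 1B1. That of interval 3 with 14 stood at 3.89 ± 0.632, 4.44 ± 0.618, 3.83 ± 0.579 and 4.78 ± 0.61, higher than in 1B1 like its block. Both windows rested on 25 to 66 reads per library.

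The lowest blocks in the mean of the untreated lines all involved the Adamts12 body. The lowest was interval 7 with interval 15, at 0.342 in 1A2, 0.347 in 1F4 and 0.419 in 1B1. It had only 82 reads in the treated library and is given further below. The next 3 had at least 100 reads in every library. Interval 7 (chr15:11046401-11174400) with interval 17 (chr15:12326401-12454400, the body of Pdzd2, a PDZ-domain protein gene) stood at 0.404 ± 0.0306 in 1A2, 0.40 ± 0.0293 in 1F4 and 0.389 ± 0.028 in 1B1, and 0.325 ± 0.0268 after degradation. With interval 20 (chr15:12710401-12838400, 6030458C11Rik and Drosha), interval 7 stood at 0.381 ± 0.0352, 0.383 ± 0.0349, 0.432 ± 0.0368 and 0.242 ± 0.0242. Interval 8 with interval 20 stood at 0.41 ± 0.0327, 0.409 ± 0.0309, 0.509 ± 0.0334 and 0.329 ± 0.0251. All 3 were lowest in the treated library, although the untreated values were already under 0.51. Over the 10 blocks of intervals 7 and 8 with intervals 16 to 20, medians were 0.494, 0.495 and 0.506 in 1A2, 1F4 and 1B1 and 0.399 after degradation, and 9 of the 10 treated values were below every untreated one. Of all 119 far blocks, 47.1% were below.

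**Figure D3:**
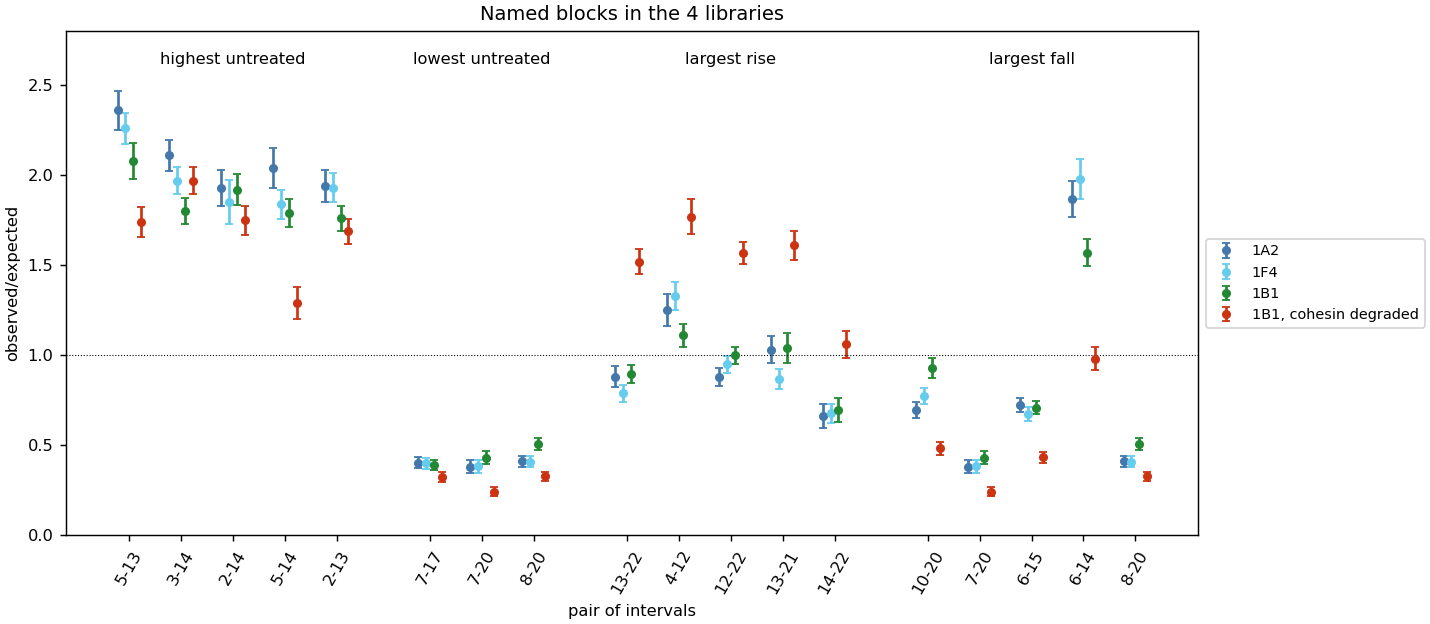
Observed/expected of the named blocks (pair of interval numbers) in the 4 libraries, with counting errors as bars and the average contact for the distance, 1, as a dotted line; a block may stand in 2 groups. The treated library lies above the other 3 in each of the largest rises and below them in each of the largest falls, whereas blocks 2-13, 2-14 and 3-14 differ from 1B1 alone by 0.13 or less (log2) in the treated library.

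Far blocks differed in both directions after cohesin degradation. A block was called changed where its observed/expected differed 1.5-fold or more, a size and not a test. Against 1B1, 6 of 119 far blocks rose and 8 fell in the treated library (5.04% and 6.72%); over all 273 blocks of the region, near ones included, the shares called were 5.86% higher and 7.33% lower, so that far blocks were called at about the rate of the region as a whole. No far block was called between 1F4 and 1A2 or between 1B1 and 1A2 (0% of all blocks in either case), and 1 was called between 1B1 and 1F4 (0.84%, against 0.366% of all blocks). These counts depended on block size. With blocks of 10 bins, 4.96%, 4.74% and 5.6% were called in these untreated comparisons, against 6.47% higher and 11.4% lower in the treated library, and with blocks of 40 bins no block fell and 3.57% rose. The block called between 1B1 and 1F4, interval 14 with interval 23, was named after its values were seen; it stood at 0.665 in 1A2, 0.585 in 1F4 and 0.897 in 1B1, and 0.851 after degradation.

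The change had more spread than the differences between lines. Over the 119 blocks the log2 change from 1B1 to the treated library had an SD of 0.35 and a median counting error of 0.12, and ran from -1.13 to 0.76. The same SD was 0.14 for 1F4 against 1A2, 0.16 for 1B1 against 1A2 and 0.16 for 1B1 against 1F4, with median counting errors of 0.12 to 0.13. Changes exceeded 2 counting errors in 51 blocks after degradation, and in 3, 11 and 13 blocks in the comparisons of untreated lines.

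**Figure D4:**
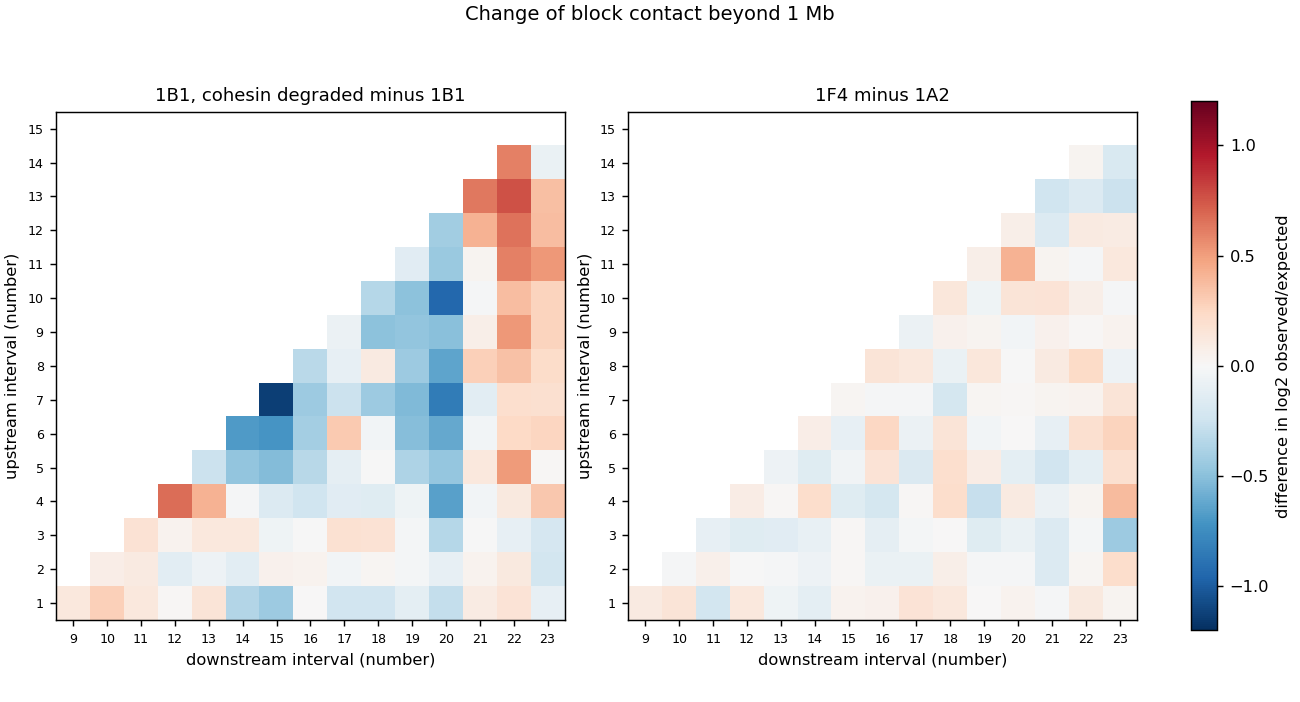
Difference in log2 observed/expected of every far block between 1B1 with cohesin degraded and 1B1 (left) and between 1F4 and 1A2 (right), by interval number and on 1 colour scale. On the left, columns 19 and 20 are lower throughout and column 22 is higher with all but 1 partner; on the right, all differences stay between -0.44 and 0.42.

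Contrast within the far map was larger after degradation. Over blocks up to 2 Mb apart, the SD of log2 observed/expected was 0.579 ± 0.010 in 1A2, 0.570 ± 0.010 in 1F4 and 0.535 ± 0.0095 in 1B1, and 0.750 ± 0.012 after degradation (counting errors of the SD). With the counting variance taken off, the SD was 0.571, 0.562, 0.527 and 0.744. On chromosome 1 the same SD was 0.919 ± 0.0083, 0.93 ± 0.0079, 0.9 ± 0.0076 and 0.956 ± 0.0093 over 132 blocks, and on chromosome X it was 0.722 ± 0.028, 0.835 ± 0.027, 0.656 ± 0.029 and 0.763 ± 0.030 over 42 blocks. The treated library thus lay above every untreated library on chromosomes 15 and 1 and between them on chromosome X.

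The treated value lay above all 3 untreated libraries in 41 of 119 far blocks and below all 3 in 56 (34.5% and 47.1%). Over all 273 blocks of the region the shares were 44.0% and 42.1%, and among the 154 blocks under 1 Mb they were 51.3% and 38.3%. Far blocks outside the untreated range were more often below than above it, and near blocks more often above; this difference was not tested.

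Interval 20, with 6030458C11Rik and Drosha, was lower with every far partner, and its neighbour, interval 19, with the Pdzd2 start, was lower than in 1B1 throughout. The largest fall among the named blocks was that of interval 10, with the LacO site, and interval 20, from 0.928 ± 0.0542 in 1B1 to 0.483 ± 0.0356, a 1.92-fold fall. It was 0.696 ± 0.0445 in 1A2 and 0.774 ± 0.0441 in 1F4, so that 1B1 was the highest of the 4 and the treated library the lowest. The falls of interval 20 with interval 7 and interval 8, given above, were 1.79-fold and 1.55-fold. For interval 8 the call rested on 1B1, the highest untreated library, since against the mean of the untreated libraries the log2 change was -0.42. Interval 20 was lower in the treated library than in all 3 untreated ones with each of its 12 far partners. The median change was -0.48 (log2) against 1B1, and 11 of the 12 differences exceeded 2 counting errors. Interval 19 was lower than in 1B1 with all 11 partners, by a median of -0.37, and below all untreated libraries with 9. Of all 119 far blocks, 67 were lower than in 1B1, 47.1% were below all untreated libraries, and 51 differences exceeded 2 counting errors. Blocks of 1 interval share that interval and are not separate observations.

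The other named falls joined interval 6, with the starts of the melanosomal transporter gene Slc45a2, the relaxin-3 receptor gene Rxfp3 and Adamts12, to the Zfr and Mtmr12 intervals. With interval 14 it went from 1.87 ± 0.0991, 1.98 ± 0.110 and 1.57 ± 0.0741 in 1A2, 1F4 and 1B1 to 0.981 ± 0.0648, a 1.60-fold fall against 1B1 from clearly above average to average. With interval 15, which holds the start of the myotubularin-related gene Mtmr12, it went from 0.724 ± 0.0395, 0.674 ± 0.0364 and 0.709 ± 0.0364 to 0.434 ± 0.0308, a 1.63-fold fall. All 5 far blocks of intervals 5 and 6 with intervals 13 to 15 were below every untreated library, as were 47.1% of all 119 far blocks.

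Another 3 blocks fell that the rule on names left out. The block of interval 7 with interval 15 had the largest change of all, from 0.419 ± 0.037 in 1B1 to 0.191 ± 0.024 (2.20-fold), with 0.342 ± 0.033 in 1A2 and 0.347 ± 0.031 in 1F4, but only 82 reads in the treated library. Interval 4 with interval 20 (mean separation 2048.0 kb) fell 1.57-fold and interval 6 with interval 20 fell 1.52-fold. Of the 8 falls against 1B1, 5 had interval 20 on 1 side. Against the mean of the untreated libraries there were also 8 falls, 6 of them the same blocks, and 3 had interval 20: the blocks of interval 20 with intervals 6 and 8 were no longer called, and those of interval 5 with 15 and 7 with 16 were.

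The rises centred on the downstream end, where Cdh6 lies. Interval 13 (Npr3 and Sub1) with interval 22 (chr15:12966401-13094400, the Cdh6 body) went from 0.882 ± 0.0575, 0.789 ± 0.0472 and 0.896 ± 0.0495 in 1A2, 1F4 and 1B1 to 1.52 ± 0.0682 after degradation, a 1.69-fold rise against 1B1. Interval 12 with interval 22 went from 0.877 ± 0.0504, 0.95 ± 0.0487 and 1.00 ± 0.0482 to 1.57 ± 0.0607. The untreated libraries lay close together in both, and the treated library stood well apart from them.

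Interval 13 with interval 21, which spans the end of Drosha and the end of Cdh6, went from 1.03 ± 0.0748, 0.868 ± 0.0561 and 1.04 ± 0.0842 to 1.61 ± 0.0785. Interval 14 with interval 22 went from 0.663 ± 0.065, 0.677 ± 0.0529 and 0.697 ± 0.0668 to 1.06 ± 0.073, and interval 11, with the TetO site, with interval 22 went from 0.885 ± 0.052, 0.88 ± 0.0515 and 0.92 ± 0.052 to 1.39 ± 0.0582. These rises were 1.54-fold, 1.52-fold and 1.51-fold against 1B1, and the last was no longer called with expected values from a straight line (log2 change 0.58). The groups of intervals counted here and above were formed after their values had been seen. Over all 14 far blocks of intervals 10 to 14 with intervals 21 to 23, the treated value was above every untreated one in 12 (34.5% of all 119 far blocks were above), and the median log2 change was 0.40. Interval 22 was higher than in any untreated library with 13 of its 14 far partners; the exception was interval 3, with a log2 change of -0.10.

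Only 1 of the 6 rises lay elsewhere. Interval 4 (chr15:10662401-10790400, no gene) with interval 12 (the Npr3 end) had a log2 observed/expected of 0.32 in 1A2, 0.41 in 1F4 and 0.15 in 1B1, and 0.82 after degradation. This was a 1.59-fold rise against 1B1, the lowest of the untreated lines. The call was lost against the mean of the untreated libraries, with a log2 change of 0.52, and without balancing, with 0.57.

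Summed over all far partners, single intervals showed the same order. Interval 20 had an observed/expected of 0.763 in 1A2, 0.797 in 1F4 and 0.836 in 1B1, and 0.624 after degradation, a log2 difference of -0.42 ± 0.04 against 1B1. Interval 22 had 0.893, 0.915, 0.931 and 1.23, a difference of 0.40 ± 0.03. The log2 difference was -0.27 ± 0.04 at interval 19 and -0.25 ± 0.04 at interval 5, whereas intervals 12 and 13, either end of Npr3, were higher by 0.26 ± 0.04 and 0.23 ± 0.04. These differences depended on the distance taken. With partners 1.5 Mb or more away, that of interval 5 was 0.01. Those of intervals 19, 20 and 22 were then -0.16, -0.31 and 0.26, smaller but in the same direction. In all, 8 intervals were above, 12 below and 3 within the untreated range, and no difference between untreated lines exceeded 0.18 at any interval. Without dividing by the expected value, the mean balanced signal of interval 20 was 3.39, 3.14, 4.30 and 3.54 and that of interval 22 was 3.70, 3.36, 4.46 and 6.75, so that both changes against 1B1 kept their direction, while the treated value of interval 20 was then above 1A2 and 1F4.

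**Figure D5:**
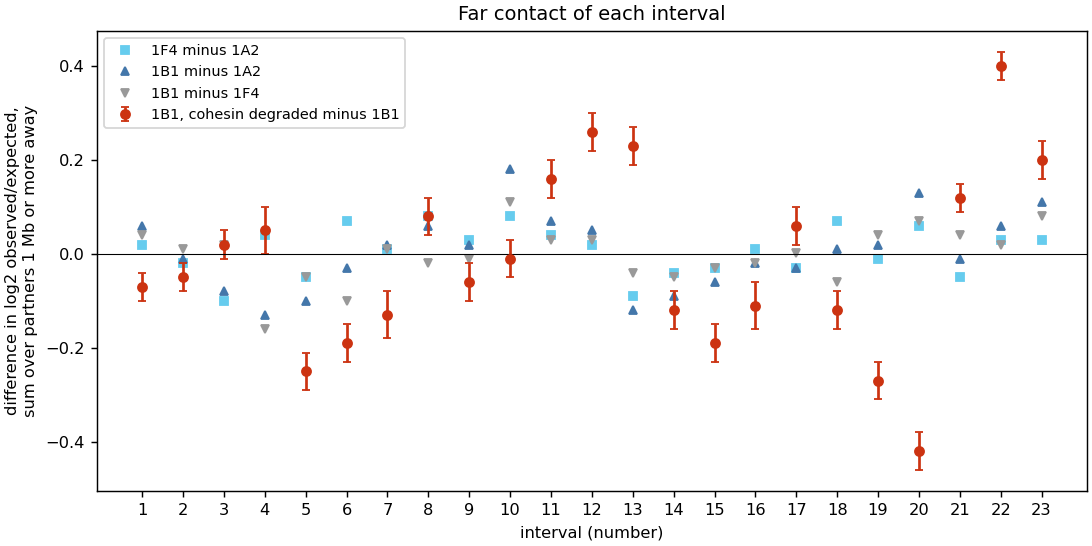
Difference in log2 observed/expected of each interval, summed over its partners 1 Mb or more away, between the libraries named in the key; bars on the treated points are counting errors. Treated minus 1B1 runs from -0.42 at interval 20 to 0.40 at interval 22, and the 3 comparisons of untreated lines stay within 0.18 of 0.

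The far contacts of the arrays were described as a group of 16 blocks, 5 with partners upstream and 11 with partners downstream. Against 1A2, 1B1 was higher in 14 of the 16, by a median log2 difference of 0.10 with a median counting error of 0.12 per block. Over all far blocks it was higher in 65 of 119, with a median of 0.02. Against 1F4, 1B1 was higher in 11 of the 16, by a median of 0.06 (all far blocks, 57 of 119 and -0.01). Line 1F4 was higher than 1A2 in 10, by 0.07 (all far blocks, 64 of 119 and 0.01). The largest difference of 1B1 from 1A2 was at the LacO interval with interval 20, 0.41 ± 0.12, which was 0.26 ± 0.12 against 1F4. Between 1F4 and 1A2, neither of which has the cassettes, the TetO interval with interval 20 differed as much, by 0.42 ± 0.12. None of these blocks differed 1.5-fold between untreated lines. The arrays sat on 1 allele, and the signal of the unmodified allele, for which the paper corrected, was not taken off here. Differences at the modified allele may therefore be larger than these values.

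After degradation the array blocks split by partner. With intervals 18 to 20 all 5 were below every untreated library, with a median change of -0.45 (log2) against 1B1. With intervals 21 to 23, 5 of 6 were above every untreated library, and the median change of all 6 against 1B1 was 0.32. Of all 119 far blocks, 47.1% were below and 34.5% above. The split was not particular to the arrays, since interval 20 was below with all 12 of its far partners and interval 22 above with 13 of 14. Upstream, the 5 blocks with intervals 1 to 3 were all above the untreated range, with a median change of 0.13 against 1B1. In 1 of them, interval 1 with the LacO interval, the change exceeded 2 counting errors. Over the 16 blocks the median change was 0.10, with higher and lower blocks on either side, against -0.03 over all 119 far blocks. Counting only pairs 1.5 Mb or more apart, the median of the array blocks was 0.34. No pair with intervals 1 to 3 or 18 to 20 is that far from the arrays. This median therefore covers fewer blocks, all with partners in intervals 21 to 23, and does not show a change that grows with distance.

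Blocks were also grouped by the genes in their intervals, as a description over blocks that share intervals. The 46 blocks with a protein-coding start in both intervals had median log2 observed/expected of 0.11 in 1A2, 0.12 in 1F4 and 0.07 in 1B1, and -0.02 after degradation, and the 16 blocks with a start in neither had -0.17, -0.08, -0.11 and 0.14. The median change against 1B1 was -0.11, 0.01 and 0.16 with starts in both intervals, in 1 (57 blocks) and in neither, against -0.03 over all 119. In the first group 13 blocks were higher and 33 lower than 1B1, and in the last 10 were higher and 6 lower. These medians depended on the processing. With the grid moved by 10 bins, the change was -0.03 with starts in both intervals and -0.20 with starts in neither, which was -0.03 with blocks of 10 bins. With starts in both it was -0.26 when at least 2 starts per interval were asked for, and splitting the intervals by GC content instead gave -0.02 for both and -0.12 for 1. No order of the groups by their change is therefore given.

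A list of broadly expressed genes (Rad1, Brix1, Dnajc21, Tars, Sub1, Zfr, Mtmr12, Golph3 and Drosha), with starts in 8 intervals, was compared in the same way. The 12 far blocks that joined such intervals had a median of 0.44 in 1A2, 0.40 in 1F4 and 0.40 in 1B1, and 0.35 after degradation, above the 51 blocks with none, at -0.17, -0.08, -0.11 and -0.01. Their median change was -0.08, against 0.03 for the blocks with none and -0.11 for the 56 with 1 such interval. With blocks of 10 bins it was -0.01 for both intervals and -0.004 for neither, so that the difference between these groups was not seen there, and -0.17 for 1 interval. All 8 blocks that fell 1.5-fold or more had a broadly expressed gene in exactly 1 interval, as had 3 of the 6 that rose; blocks of that kind made up 56 of 119. Which intervals are transcribed was not measured in these libraries.

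When bins were grouped by domain instead of on a fixed grid, the highest pairs recurred, but not every other call did. Insulation minima in the mean of 1A2 and 1F4 gave 10 boundaries and 11 domains, a division made after the block values had been seen, and 31 pairs of domains had at least 200 far bin pairs. Between 2 and 10 boundaries lay between the intervals of each far block. Domain 3 (C1qtnf3 to Rxfp3, chr15:10828801-10969600) with domain 6 (Sub1, chr15:11891201-12044800) was the highest in each untreated library, at 2.43 ± 0.0829 in 1A2, 2.38 ± 0.0872 in 1F4 and 2.08 ± 0.0683 in 1B1, and 1.54 ± 0.081 after degradation. Domain 1 (Agxt2 to Rai14, chr15:10278401-10649600) with domain 6 was next in untreated cells, at 1.83 ± 0.0466, 1.72 ± 0.0479, 1.68 ± 0.0403 and 1.70 ± 0.0392. The former was 1.36-fold lower after degradation and the latter stayed within the untreated range. After degradation the highest pair was domain 2 with domain 5, at 1.83 ± 0.0698.

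Of the 31 domain pairs, 4 fell 1.5-fold or more and none rose by that much, although 6 blocks had. Domain 4 (Adamts12 and Tars, chr15:10969601-11334400) with domain 7 (Zfr, Mtmr12 and Golph3, chr15:12044801-12288000) fell 1.69-fold, from 0.476 ± 0.0202, 0.48 ± 0.0187 and 0.471 ± 0.0184 in 1A2, 1F4 and 1B1 to 0.279 ± 0.0147. Domain 3 with domain 7 fell 1.54-fold, and domains 2 and 3 with domain 10 (6030458C11Rik and Drosha, chr15:12736001-12851200) fell 1.53-fold each. The same domain 4 differed little between libraries with domain 8, which adjoins domain 7, at 0.481 ± 0.0149, 0.485 ± 0.0146, 0.466 ± 0.0137 and 0.461 ± 0.0147.

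The array domain (domain 5, chr15:11334401-11891200, with Npr3) went opposite ways with adjacent partners. With domain 10 it stood at 0.668 ± 0.022, 0.757 ± 0.0231, 0.785 ± 0.0237 and 0.532 ± 0.0183, 1.47-fold lower after degradation than in 1B1. With domain 11 (the Drosha end and Cdh6, chr15:12851201-13196800) it stood at 1.02 ± 0.0189, 1.01 ± 0.0173, 1.08 ± 0.018 and 1.41 ± 0.0194, 1.30-fold higher, on 4606, 5243, 5705 and 8459 reads. Domain 6 with domain 11 was 1.38-fold higher, at 0.689 ± 0.0335, 0.643 ± 0.0304, 0.76 ± 0.0363 and 1.05 ± 0.0392. Its neighbour, domain 7, went the other way with domain 11, at 0.422 ± 0.0471, 0.405 ± 0.0375, 0.488 ± 0.0377 and 0.361 ± 0.0374, which was 1.35-fold lower than 1B1 on 141 reads in the treated library. The Cdh6 end was thus not higher with all partners, and in 1A2 and 1F4 domains 7 and 11 were the lowest of the 31 pairs. In all, the treated library was above every untreated one in 9 domain pairs and below in 17.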

How the data were processed

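The authors processed 4 tiled Capture-C libraries (MboI) with HiC-Pro (2.11.4 on mm9 per the submitters' processing notes), kept unique valid pairs within the targets, binned them at 6.4 kb and balanced them with ICE. The deposited values are thus a balanced contact signal per bin pair, and each library sums to 15000000. Since balancing scales a read number by the factors of its row and column, these factors were estimated from the low values and whole reads recovered: 100% of values came within 0.05 of a whole read. Recovered read pairs numbered 3214144 (1A2), 4089968 (1F4), 3234581 (1B1) and 3622612 (treated). Counting errors are Poisson errors of these reads, which carry no molecular identifiers, and cover counting error only.

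Groups came from the sample labels. Observed/expected was the sum of balanced signal over the sum of the mean at each separation in the region, per block of 20 by 20 bins with at least 200 bin pairs. With 1 library per group there was no test; 1.5-fold marks a change. Named blocks, up to 2 Mb apart with at least 100 reads in every library, were the 5 highest and 3 lowest in the mean of the untreated lines, the 5 largest rises and 5 largest falls, and the array blocks; within each, the window of 3 by 3 bins highest over expected was named if it held at least 20 reads in every library. Domain boundaries were bins where the log2 mean signal in a square of 20 bins was lowest within 10 bins and, on both flanks of 30 bins, 0.3 or more under the maximum. Genes came from GENCODE vM1 on NCBIM37, whose chromosome 15 length (103494974) equals that of the bin table. The members and lists were chosen with earlier results of these data known. Recovery and block changes were tested on simulated data. Alternatives covered the expected value, block size, grid, balancing, distance, trimming, reference library and fold. The study's wild-type map was not used here. Python 3.11.15, numpy 2.4.6, scipy 1.17.1, statsmodels 0.14.6 and matplotlib 3.10.9 were used.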

Additional observations from a re-analysis of the deposited data

How the results depend on the processing

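No paired analysis was possible because each group held 1 library, so the groups shared 1 replicate number at most; leaving out replicates was impossible for the same reason. Of 160 alternatives to 22 summary values, 111 left the value within its margin, which was 1.5 times for percentages of blocks and the 95% counting interval for log2 values, 45 moved it further and 4 turned the sign of a value larger than its margin. Values smaller than their margin, such as 0.01, also changed sign. The share of blocks whose treated value lay above all untreated ones (34.5%) ran from 28.9% to 36.1% over the alternatives, and the share below (47.1%) from 38.4% to 53.6%. In addition, all 124 alternatives to the changes of the 31 named blocks lay within their 95% counting intervals. These were the expected value from a straight line, unbalanced reads, trimming and the mean of the untreated libraries, all on the same reads. Block size, grid, distance and fold were not varied for named blocks. A block within its interval could still lose its 1.5-fold call, as interval 8 with interval 20 did. The domain pairs and the alternatives for single intervals were chosen after seeing the data. The cut at 1.5 Mb left 66 of the 119 blocks. The cause of each shift below was otherwise not tested.

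Counting only pairs 1.5 Mb or more apart, the log2 ratio of the far share, treated to 1B1, was 0.32 in place of 0.03, and by balanced sums it was 0.05. The spread of blocks, 0.22 higher in the treated library than in 1B1, was 0.18 higher with blocks of 40 bins and 0.18 with the grid moved by 10 bins. Rises (5.04% of blocks) made up 2.86% with the moved grid, 0% beyond 1.5 Mb, 0% of domain pairs, and 12.6% and 0% with the lower fold and the 2-fold threshold. The blocks that rose had mean separations of 1053.7 to 1408.0 kb, so the cut at 1.5 Mb left them out and does not test them. Falls (6.72%) made up 11.4% with blocks of 10 bins, 0% with 40 bins, 12.9% of domain pairs, and 25.2% and 0.84% with the lower and the 2-fold threshold. Between untreated lines, blocks of 10 bins and the lower fold gave 4.74% and 3.36% for 1B1 against 1A2 and 4.96% and 2.52% for 1F4 against 1A2, where the main count was 0%. For 1B1 against 1F4 (0.84%) they gave 5.6% and 1.68%, and 40 bins, the moved grid, unbalanced reads, 1.5 Mb and 2-fold gave 0% each.

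For blocks with starts in both intervals, the median change of -0.11 was -0.03 with the moved grid, -0.18 without balancing, -0.26 with at least 2 starts per interval and -0.02 when split by GC content. For starts in 1 interval (0.01) it was -0.03 with 10 bins, 0.07 beyond 1.5 Mb and -0.12 by GC. For starts in neither (0.16) it turned to -0.03 with 10 bins, -0.20 with the moved grid and -0.004 with at least 2 starts, and was 0.31 with 40 bins and 0.26 without balancing. By broadly expressed genes, the change was -0.16 without balancing for both intervals (-0.08), -0.17, -0.21 and -0.16 with 10 bins, 40 bins and without balancing for 1 interval (-0.11), and 0.13 with 40 bins for neither (0.03). Array blocks (0.10) gave 0.34 beyond 1.5 Mb, where the upstream partners and those up to interval 20 were no longer counted. Without balancing, interval 5 (-0.25) gave -0.33 and interval 22 (0.40) gave 0.48. Beyond 1.5 Mb, interval 5 turned to 0.01, interval 19 (-0.27) gave -0.16, interval 20 (-0.42) gave -0.31 and interval 22 gave 0.26. Depth limited single blocks to counting errors of about 0.12 on the log2 change.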

Other observations

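Far contacts of the Adamts12 body with the downstream end differed from those with the stretch in between. In 6 blocks of intervals 7 and 8 with intervals 21 to 23, median observed/expected was 0.905 in 1A2, 0.988 in 1F4 and 0.956 in 1B1, and 1.16 after degradation. The treated value was above every untreated one in 5 of the 6 and below in 1, where 34.5% of all 119 far blocks were above and 47.1% below. Domain 2 (chr15:10649601-10828800, no gene) with the array domain stood at 1.52 ± 0.0639, 1.57 ± 0.0602 and 1.33 ± 0.0551 in 1A2, 1F4 and 1B1, and at 1.83 ± 0.0698 after degradation, 1.37-fold above 1B1.

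Over the 119 far blocks, the log2 change against 1B1 had a Pearson correlation of -0.356 with the summed GC content of both intervals. The product of the GC deviations of both intervals from their mean correlated with log2 observed/expected at 0.417, 0.422 and 0.442 in 1A2, 1F4 and 1B1, and at 0.554 after degradation. Blocks share intervals, so these are descriptions.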
